A study of Mus musculus with 8 samples.

Results

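The messenger RNAs of 10 chemokine ligands, *Ccl2*, *Ccl12*, *Ccl3*, *Ccl4*, *Ccl6*, *Ccl9*, *Cxcl12*, *Cxcl14*, *Cxcl16*, and *Cx3cl1*, were followed in the mouse corpus callosum, a bundle of myelinated axons between the hemispheres. They were chosen by symbol as chemokines of glia and vessels, without the interferon-induced *Cxcl9* and *Cxcl10*, from 25239 gene symbols. All 10 had a mean of at least 0.1 CPM (normalized read counts, scaled by the effective library size) over the libraries and were therefore among the 18123 genes tested. *Ccl2* reached this mean only through a single library, described below.

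Male mice, 8 to 12 weeks old and labelled C57BL/6 (C57BL/6J in the study's methods, the strain to which the TRPA1-KO line was backcrossed), received bilateral common carotid artery stenosis (BCAS), in which a microcoil around each common carotid artery lowers cerebral blood flow, or a sham operation without coils. The mice were deposited as wild type (WT) or as TRPA1-KO, a constitutive deletion of *Trpa1*, the gene of a cation channel opened by oxidants. Each label had 4 libraries, namely sham on day 14 and BCAS on days 7, 10, and 14. With a single library per label and day, the 3 BCAS days of a label served as replicates, and their spread includes the differences between days. Per the study's methods, a data point stands for 1 mouse.

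The 8 libraries held between 7896071 and 12952093 reads on genes, and a floor of 3 reads corresponded to 0.235 to 0.378 CPM. *Trpa1* went against the labels, with 1 read in the sham library labelled WT and 0 in its 3 BCAS libraries, but 10, 11, 3, and 7 reads in the libraries labelled TRPA1-KO (sham and days 7, 10, and 14). These are reads over the whole gene, and whether they fall in the deleted part was not analysed here. The genotypes are given as labels, and all directions refer to those labels. The summed markers of oligodendrocytes, the main cells of white matter, lay between 12080 and 16190 CPM in the 8 libraries. Markers of cortical neurons were also present in each library, at 3513 to 4703 CPM, and those of striatal neurons at 314 to 758 CPM. The library of day 7 labelled WT stood apart from the others in many genes and held the highest value of 21.9% of all tested genes and the lowest of 19.3%.

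Chemokines are small secreted proteins that draw cells along a gradient by binding G protein-coupled receptors. *Ccl2* and *Ccl12* bind the receptor CCR2 of monocytes, and *Ccl3* and *Ccl4* are inflammatory chemokines made by activated microglia and macrophages, of which *Ccl3* acts on CCR1. *Ccl6* and *Ccl9* are rodent chemokines of myeloid cells that act on CCR1. *Cxcl12*, made by vessels and some neurons, binds CXCR4 and the scavenger receptor ACKR3. *Cxcl14* is a constitutively expressed chemokine of epithelia and some neurons. *Cxcl16* and *Cx3cl1* are made as membrane-bound proteins and are shed by the proteases ADAM10 and ADAM17, and the neuronal *Cx3cl1* binds CX3CR1 on microglia.

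On GRCm38, 7 of the 10 genes lie on chromosome 11, and 6 of these, the Ccl genes, fall into 2 neighborhoods. *Ccl2* (82035571 to 82037453, plus strand) and *Ccl12* (82101845 to 82103400, plus strand) lie on either side of *Ccl7* and *Ccl11*. *Ccl9* (83572919 to 83578636), *Ccl6* (83587882 to 83593087), and *Ccl3* (83647844 to 83649355) follow each other on the minus strand, and *Ccl4* (83662584 to 83664683) comes next on the plus strand. *Cxcl16* (70453983 to 70459984, minus strand) lies apart from both and shares 552 exon bases with *Zmynd15* on the opposite strand. *Cxcl12* lies on chromosome 6 (117168535 to 117181367, plus strand), *Cxcl14* on chromosome 13 (56288643 to 56296551, minus strand), and *Cx3cl1* on chromosome 8 (94772009 to 94782427, plus strand). Because the strand setting of the counting is not given in the sources used here, reads of *Cxcl16* and *Zmynd15* over the shared bases cannot be told apart. A stretch of the *Ccl9* transcript of at most 163 bases had a near-identical copy in transcripts of 134 other genes, so part of its reads may be uncertain.

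The 250 bases upstream of the start site were searched in the 7 members that had an entry among the RefSeq promoters of GRCm38.p6. The NF-κB site was sought on both strands and TATAAA on the strand of the gene. The upstream bases of 4 Ccl genes of chromosome 11 are shown because their transcripts were highest in the same library. They are written 5′ to 3′ on the strand of the gene, and the capitals mark the TATA box letters TATAAA and, in *Ccl9*, the NF-κB site as well.
Ccl12, chr11:82101595-82101844, plus strand: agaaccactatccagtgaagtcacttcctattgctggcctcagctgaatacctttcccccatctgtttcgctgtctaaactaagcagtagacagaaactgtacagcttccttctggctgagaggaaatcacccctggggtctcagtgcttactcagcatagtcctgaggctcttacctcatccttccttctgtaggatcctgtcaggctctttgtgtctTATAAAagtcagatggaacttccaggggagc
Ccl3, chr11:83649379-83649628, minus strand: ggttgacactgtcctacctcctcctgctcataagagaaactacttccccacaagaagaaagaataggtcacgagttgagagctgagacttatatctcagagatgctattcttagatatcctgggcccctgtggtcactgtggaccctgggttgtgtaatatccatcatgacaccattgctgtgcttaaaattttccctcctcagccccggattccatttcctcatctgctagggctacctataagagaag
Ccl6, chr11:83593088-83593337, minus strand: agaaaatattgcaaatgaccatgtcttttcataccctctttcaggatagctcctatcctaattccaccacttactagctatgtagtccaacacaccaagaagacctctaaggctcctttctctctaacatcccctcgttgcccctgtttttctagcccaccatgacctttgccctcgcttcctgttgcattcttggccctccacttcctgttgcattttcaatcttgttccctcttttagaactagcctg
Ccl9, chr11:83578637-83578886, minus strand: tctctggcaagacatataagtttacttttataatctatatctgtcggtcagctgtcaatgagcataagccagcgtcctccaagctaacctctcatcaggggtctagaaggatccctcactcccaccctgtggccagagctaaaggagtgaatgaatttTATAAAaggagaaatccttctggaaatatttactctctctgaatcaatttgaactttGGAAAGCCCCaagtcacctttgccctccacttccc

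TATAAA was found 31 bases upstream of the *Ccl12* start, 92 bases upstream of the *Ccl9* start, and 6 bases upstream of the *Cx3cl1* start, and thus in 3 of 7 members, against 8.12% of 27025 genes. The *Cx3cl1* window (94771930 to 94772179) ends at the RefSeq start. The GENCODE gene begins earlier, at 94772009, so this match lies inside the gene by those positions. The NF-κB site was found in 1 of 7, in *Ccl9* at 35 bases upstream, against 7.01% of genes. These matches describe the letters of the window only.

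Per kilobase of exon, the 10 transcripts differed widely in level. As a mean of the 8 libraries, *Cx3cl1* had 155 CPM per kilobase, *Cxcl14* had 34.9, and *Cxcl12* had 8.04, and these 3 varied little, with a coefficient of variation of 9.54% to 12.6% over the libraries. The other 7 lay between 0.387 (*Ccl2*) and 1.77 (*Ccl12*) CPM per kilobase, with a coefficient of variation of 76.1% to 246%. All of these 7 had their highest value on day 7 with the label WT, so their means and their order depend on that library.

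*Ccl2* was the most uneven of the 10. It had 35 reads (3.11 CPM) in the BCAS library of day 7 labelled WT and 0 reads in the sham library and on days 10 and 14 with this label. The TRPA1-KO-labelled set held 2 reads with sham (0.192 CPM), 2 on day 7 (0.223 CPM), and 0 on days 10 and 14. Outside 1 library, *Ccl2* was therefore under the floor of 3 reads, and only through that library did its mean reach 0.1 CPM. In that library, its share of reads was 36.1 times that in both sham libraries together, with a 95% counting interval of 9.28 to 310 (exact, counting error only).

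*Ccl12*, its neighbor with the same receptor, stood at 0.469 CPM with sham in the WT-labelled set and at 5.16 (day 7), 0.378 (day 10), and 0.329 CPM (day 14) with BCAS. The TRPA1-KO-labelled libraries held 0.0959 CPM with sham and 0.334, 0.320, and 0.520 CPM in the same order of days. Day 7 labelled WT was 9.91 times the next highest library and 17.1 times sham (7.79 to 44.4), whereas the other 5 BCAS libraries lay within the range of 3 to 5 reads. The genes between and beside this pair were sparse as well, and *Ccl7*, *Ccl11*, and *Ccl8* had their highest values, 1.42, 1.07, and 0.445 CPM, in the same library.

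*Ccl3* stood at 0.156 CPM with sham in the WT-labelled set and at 4.62 (day 7), 1.26 (day 10), and 0.549 CPM (day 14) with BCAS. Among TRPA1-KO-labelled libraries, sham reached 0.0959 CPM and the 3 days 0.445, 0.107, and 0.728 CPM. All 3 BCAS libraries labelled WT lay above both sham libraries, in which only 3 reads were counted in all. Compared with these, *Ccl3* was 35.8 times the sham level on day 7 (11.6 to 179) and 9.75 times on day 10 (2.51 to 55.1) with the label WT, and 5.63 times on day 14 with the label TRPA1-KO (1.29 to 33.8).

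*Ccl4*, which lies next to *Ccl3* and is read in the opposite direction, had 0 reads in the WT-labelled sham library and stood at 3.91 (day 7), 0.630 (day 10), and 0 CPM (day 14) with BCAS. In the TRPA1-KO-labelled set, sham held 0.288 CPM, days 7 and 10 held 0, and day 14 held 0.312 CPM. It was 30.3 times the sham level on day 7 with the label WT (9.7 to 152), and its 5 reads of day 10 were not separable from sham at this depth (0.948 to 31.4).

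*Ccl6* was measured in every library. It stood at 1.56 CPM with sham in the WT-labelled set and at 7.92 (day 7), 3.65 (day 10), and 2.08 CPM (day 14) with BCAS, so the values of this label were lower on each later day. In the TRPA1-KO-labelled set, the values were 1.53 CPM with sham and 1.89, 1.39, and 2.91 CPM with BCAS. The SD of the sham libraries was 0.0215 CPM (n = 2), and day 7 labelled WT was 5.1 times their level (3.43 to 7.74).

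*Ccl9*, the neighbor of *Ccl6*, stood at 2.27 CPM with sham in the WT-labelled set and at 7.03 (day 7), 2.39 (day 10), and 1.21 CPM (day 14) with BCAS. The TRPA1-KO-labelled libraries held 1.05 CPM with sham and 0.668, 0.961, and 4.79 CPM in the same order of days. Among the 7 sparse members, it was the one in which a library labelled TRPA1-KO came closest to day 7 labelled WT. The day 14 library labelled TRPA1-KO was 2.78 times sham (1.78 to 4.35), and the one of day 7 with this label was 0.388 times sham (0.134 to 0.92).

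*Cxcl16* stood at 1.02 CPM with sham in the WT-labelled set and at 5.87 (day 7), 3.02 (day 10), and 1.32 CPM (day 14) with BCAS. Among TRPA1-KO-labelled libraries, sham reached 0.959 CPM and the 3 days 0.891, 1.28, and 1.56 CPM. As for *Ccl3* and *Ccl6*, each BCAS library labelled WT lay above both sham libraries. Day 7 was 5.92 times sham (3.64 to 9.98) and day 10 was 3.05 times sham (1.65 to 5.66). *Zmynd15*, its partner on the opposite strand, had its 2 highest values in the same libraries, 2.04 and 1.89 CPM, against 1.09 to 1.71 CPM in the other 6.

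The 3 abundant members varied over a narrower range. *Cx3cl1* stood at 624 CPM with sham in the WT-labelled set and at 478 (day 7), 593 (day 10), and 653 CPM (day 14) with BCAS. In the TRPA1-KO-labelled set, the values were 622 CPM with sham and 704, 673, and 526 CPM with BCAS. Its lowest library was day 7 labelled WT (0.767 times sham, 0.743 to 0.791) and its highest was day 7 labelled TRPA1-KO (1.13 times sham, 1.1 to 1.16).

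*Cxcl12* stood at 72.0 CPM with sham in the WT-labelled set and at 51.4 (day 7), 60.4 (day 10), and 72.3 CPM (day 14) with BCAS. The TRPA1-KO-labelled libraries held 73.7 CPM with sham and 62.0, 73.5, and 60.7 CPM in the same order of days. It was also lowest on day 7 with the label WT (0.707 times sham, 0.642 to 0.777). The markers of striatal neurons (0.484 times sham, 0.467 to 0.503) and of cortical neurons (0.833 times, 0.823 to 0.842) were also lowest in that library. On day 14 labelled WT, however, *Cxcl12* was 0.994 times sham (0.907 to 1.09) where striatal neuron markers were 0.601 times sham (0.579 to 0.623).

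*Cxcl14* stood at 63.4 CPM with sham in the WT-labelled set and at 76.0 (day 7), 53.8 (day 10), and 64.6 CPM (day 14) with BCAS, and its highest and lowest libraries thus carried the same label. Among TRPA1-KO-labelled libraries, sham reached 63.2 CPM and the 3 days 61.8, 62.0, and 64.8 CPM, all within the range of the WT-labelled set.

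**Figure D1:**
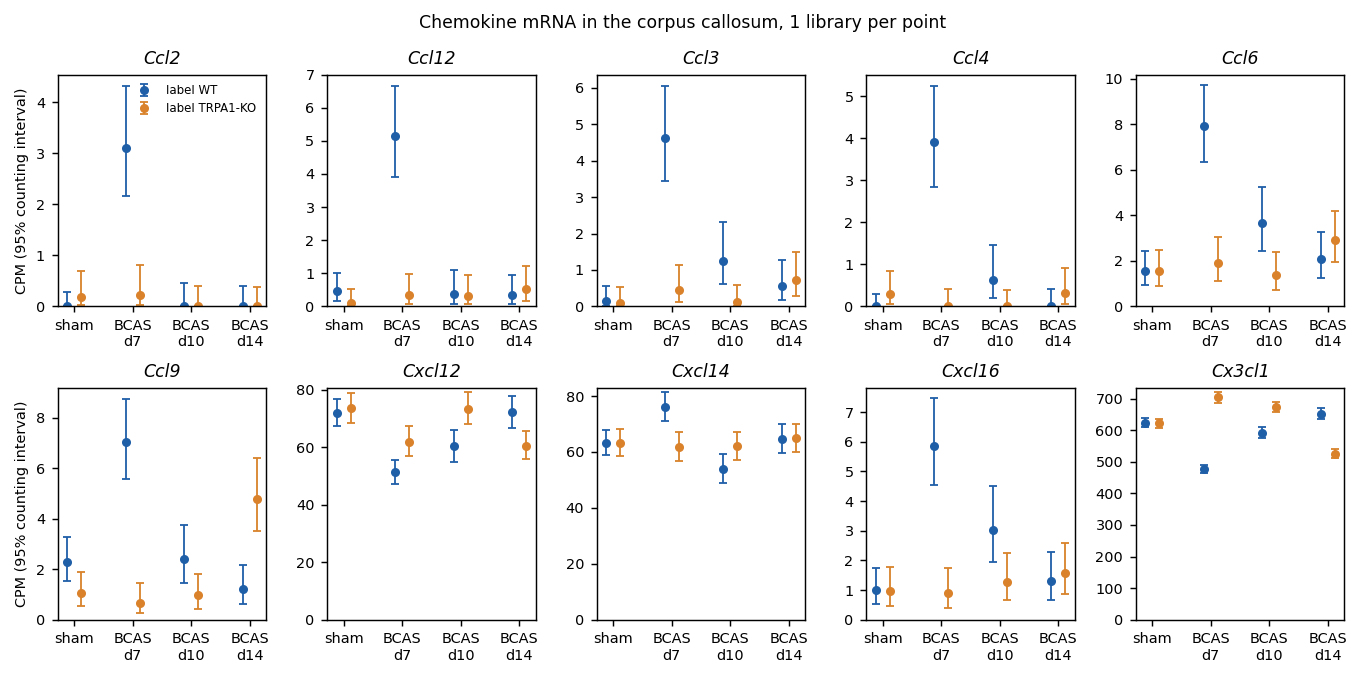
Each panel plots the CPM of 1 chemokine (vertical axis, from 0) against operation and postoperative day. Each point is 1 library, blue with the label WT and orange with the label TRPA1-KO, and bars are 95% Clopper-Pearson counting intervals. In 8 of the 10 panels the highest point is the blue one of day 7, and *Cxcl12* and *Cx3cl1* have their lowest point there.

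Thus, 8 of the 10 members had their highest value on day 7 with the label WT, where 21.9% of all tested genes did. The 6 Ccl members together stood at 4.46 CPM with sham in the WT-labelled set and at 31.8 (day 7), 8.32 (day 10), and 4.17 CPM (day 14) with BCAS. The same sum was 3.26 CPM with sham in the TRPA1-KO-labelled set and 3.56, 2.78, and 9.26 CPM on the 3 days. The day 7 library labelled WT and the day 14 library labelled TRPA1-KO therefore held the highest sums of their labels. On the log2(CPM + 1) scale, the median member differed from the sham mean by 1.80 on day 7, 0.25 on day 10, and 0.05 on day 14 with the label WT, and by 0.02, -0.03, and 0.24 with the label TRPA1-KO.

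Several cell type markers were highest in the same library as the members. The summed 9 microglia markers, such as *P2ry12*, *Tmem119*, and *Csf1r*, reached 332 (WT-labelled) and 342 CPM (TRPA1-KO-labelled) with sham. They had 813, 525, and 327 CPM on days 7, 10, and 14 with the label WT, and 304, 318, and 419 CPM with the label TRPA1-KO. All 9 were highest on day 7 labelled WT, where the sum was 2.42 times sham (2.34 to 2.49), a smaller ratio than those of the 7 sparse members, whose lowest was 4.08 for *Ccl9* (2.75 to 6.12). In bulk tissue, more cells of a type and more RNA per cell cannot be told apart.

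In the same library, the 8 infiltrating leukocyte markers had 8.63 CPM against 1.82 and 2.82 CPM after sham, 3.64 times (2.59 to 5.16). Most of this sum came from *Itgal* (3.65 CPM) and *Ly6c2* (3.38 CPM), and only 3 of the 8 reached the limit on mean expression. On day 10 labelled WT, the list was 2.98 times sham (2.02 to 4.4), with *Ly6c2* at 3.65 CPM. The T cell gene *Cd3e* and the B cell gene *Ms4a1* were under the floor in all libraries. On day 7 labelled WT, the 5 meningeal fibroblast markers were 2.26 times sham (1.95 to 2.61) and the 8 astrocyte markers 1.36 times (1.35 to 1.38). Of the latter, *Gfap* (1415 CPM against 200 and 234 CPM after sham) and *Vim* (324 against 36.1 and 39.7 CPM) were higher. So were *Aqp4* (155 against 109 and 88.3 CPM), *Aldh1l1* (94.5 against 51.2 and 61.5 CPM), *Slc1a3* (619 against 487 and 492 CPM), and *Gja1* (202 against 164 and 174 CPM). *Slc1a2* (2675 against 3045 and 2770 CPM) and *S100b* (87.6 against 91.2 and 110 CPM) were not. The sum of the 5 border macrophage markers was not separable from sham (1.09 times, 0.838 to 1.42), but its members moved in both directions. *Ms4a7* (1.07 against 0.0782 and 0.0959 CPM after sham), *F13a1* (2.76 against 1.33 and 0.671 CPM), and *Mrc1* (2.58 against 2.50 and 1.92 CPM) were higher. *Cd163* (1.33 against 3.44 and 3.45 CPM) and *Lyve1* (0.356 against 0.704 and 0.480 CPM) were lower. On day 14 labelled TRPA1-KO, microglia markers were 1.25 times sham (1.2 to 1.29) and astrocyte markers 1.23 times (1.21 to 1.24). The largest part of that astrocyte sum was *Slc1a2*, at 3512 CPM against 3045 and 2770 CPM after sham. *Gfap* stood at 427 CPM and *Vim* at 53.6 CPM. The 5 markers of cortical neurons were 0.833 times sham on day 7 labelled WT (0.823 to 0.842) and 1.11 times on day 7 labelled TRPA1-KO (1.1 to 1.13), the libraries in which *Cx3cl1* was lowest and highest. Striatal neuron markers were 0.484 to 0.821 times sham and oligodendrocyte markers 0.785 to 0.889 times sham in the 6 BCAS libraries. The part of these cell types in the values of the members was not tested.

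**Figure D2:**
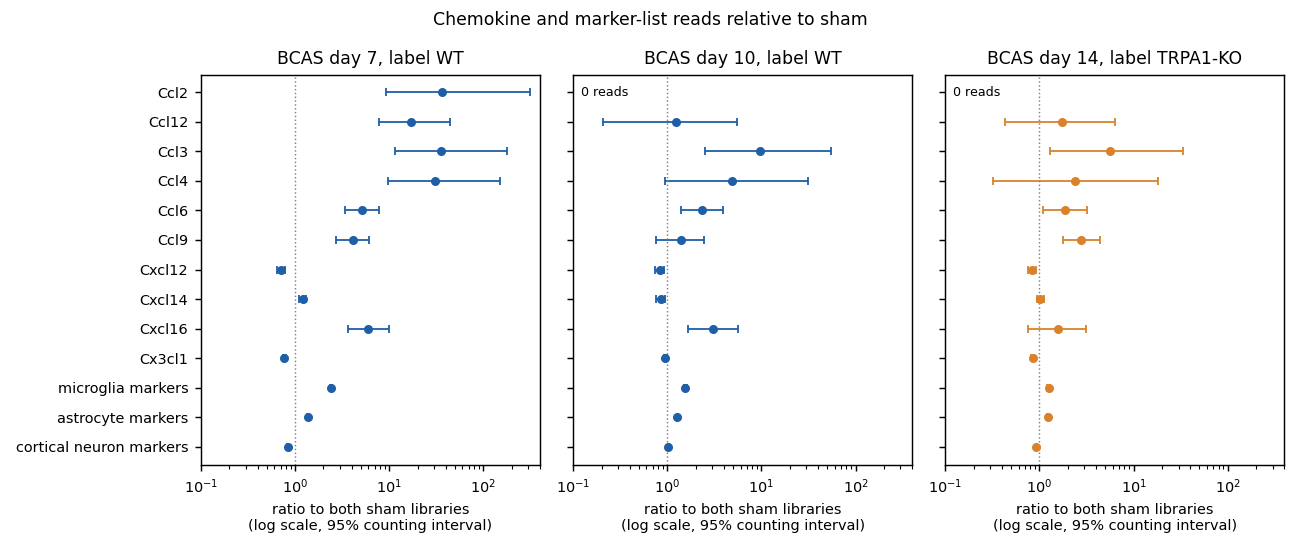
Ratios of the reads in 3 BCAS libraries to those in both sham libraries together, on a log scale, for the 10 chemokines and 3 lists of markers, with bars for 95% exact counting intervals. On day 7 labelled WT, the ratios of the 6 Ccl members run from 4.08 to 36.1 and the microglia markers lie at 2.42, and *Ccl2* has 0 reads in the other 2 panels.

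The first question was whether the BCAS-operated groups differed by label, with the 3 days as replicates. Differences were tested on log2(CPM + 1) with limma across all tested genes, a scale that understates the change of sparse genes. On average, 8 members were higher with the label WT, as 50.3% of all genes were, and 2, *Cxcl12* and *Cx3cl1*, were lower. The median log2 difference of the members was 0.64, against 0.00 for all genes, and was 0.03 without day 7 labelled WT. It was 1.31 with edgeR and 1.3 with DESeq2, which have no pseudocount of 1. The largest were those of *Ccl3* (0.94, SE 0.407), *Ccl4* (0.87, SE 0.468), and *Cxcl16* (0.84, SE 0.347). *Ccl6* followed with 0.75 (SE 0.359), and *Ccl12*, *Ccl2*, and *Ccl9* had 0.69, 0.58, and 0.56, with SEs of 0.464 to 0.53. The differences of *Cx3cl1* (-0.14, SE 0.144), *Cxcl12* (-0.10, SE 0.125), and *Cxcl14* (0.03, SE 0.114) were no larger than about 1 SE.

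None of the members passed the limma test after Benjamini-Hochberg adjustment over all genes, the lowest adjusted p being 0.983, where 0.0166% of all genes passed. Before adjustment, *Ccl3* and *Cxcl16* (2 of 10) had a p under 0.05, both higher with the label WT, against 4.2% of all genes in either direction and 2.4% in this one. On the recovered reads, edgeR gave an unadjusted p under 0.05 for 5 members (5.23% of all genes) and DESeq2 for 4 (3.29%), and neither for any after adjustment. In none of the members were the 3 libraries of a label all above the 3 of the other, which was so in 4.48% of all genes for the label WT. Exact two-sided permutation tests gave p = 0.2 for *Ccl3*, *Ccl6*, and *Cxcl16*, 0.4 for *Ccl4*, and 0.4 to 1 for the other 6, and 3 libraries against 3 cannot go below 0.1.

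Day 7 carried most of this difference. Without the day 7 library labelled WT, *Ccl3* had a log2 difference of 0.42, *Cxcl16* of 0.46, and *Ccl6* of 0.34, and those of *Ccl2* (-0.10) and *Ccl12* (-0.04) changed sign. No member had a p under 0.05 without this library, without day 10 of either label, or without day 7 labelled TRPA1-KO. Those fits gave 325 to 617 genes with such a p among all tested genes, against 761 with all BCAS libraries. Without day 14 labelled WT, 4 members had one before adjustment (*Ccl3*, *Ccl4*, *Ccl6*, and *Cxcl16*), as did 1846 of all tested genes. Leaving out day 14 labelled TRPA1-KO also gave 4 members (*Ccl3*, *Ccl6*, *Ccl9*, and *Cxcl16*), and 843 of all tested genes. No member passed after adjustment in either fit. The rise in members without day 14 labelled WT thus came with a rise over all genes. Without the filter on low values, *Ccl3* and *Cxcl16* also missed 0.05.

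Day by day, the median member was 1.81 higher with the label WT on day 7, 0.38 higher on day 10, and 0.15 lower on day 14, on the log2 scale. On day 7, 8 members were higher with the label WT, on day 10, 6 were higher and 3 lower, and on day 14, 2 were higher and 7 lower. Of all genes, 51%, 49.6%, and 48.7% were higher with the label WT on these days. *Ccl9* went from 2.27 on day 7 to 0.79 on day 10 and -1.39 on day 14, and *Cx3cl1* from -0.56 to -0.18 and 0.31. No member was higher with the label WT on all 3 days, as 10.6% of all genes were, and none was lower on all 3, as 11.2% were. With 1 library per label and day, these single-day values have no replicate check.

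**Figure D3:**
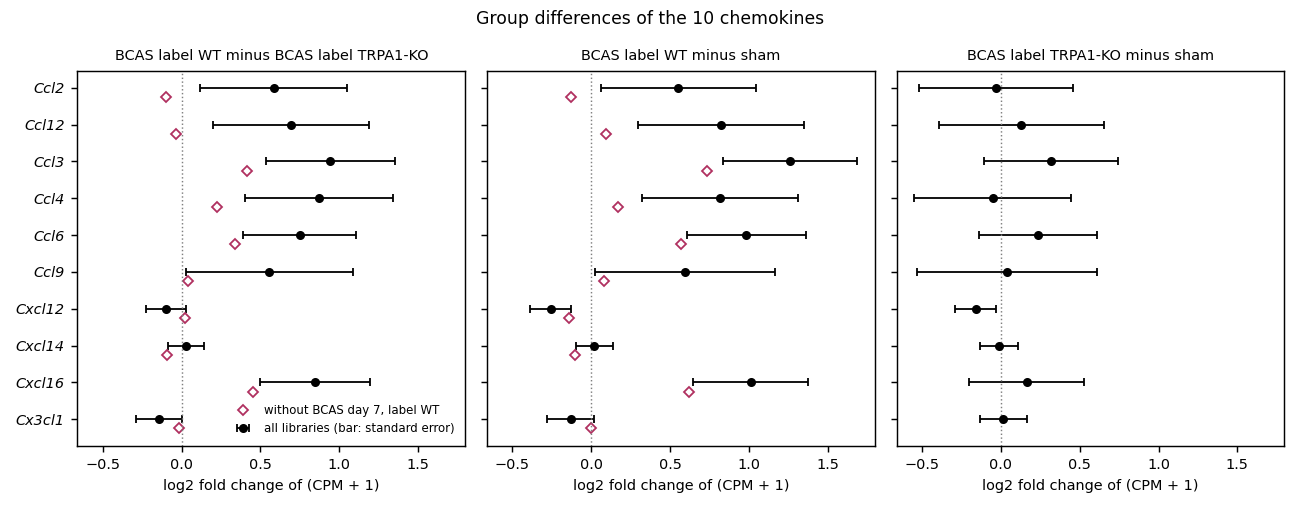
Log2 fold changes of CPM + 1 (horizontal axis) of the 10 chemokines in 3 comparisons, with black points for limma's estimate on all libraries, bars for its standard error, and open diamonds for the estimate without day 7 labelled WT. The sparse members lie to the right of 0 in the first 2 panels and move toward 0 without that library, and all 10 lie within 0.32 of 0 in the third.

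The second question was how each BCAS group differed from sham, both sham libraries being taken as 1 group of 2. With the label WT, 8 of 10 members had a higher mean than sham, as 49.6% of all genes had. The median difference of the members was 0.71 on the log2 scale (all genes 0.00, and 0.09 for the members without day 7 labelled WT). *Ccl3* differed by 1.26 (SE 0.426), *Cxcl16* by 1.01 (SE 0.363), and *Ccl6* by 0.98 (SE 0.376). The 3 BCAS libraries of these genes lay above both sham libraries, which 8.89% of all genes did, and the other 7 members overlapped. *Cxcl12* had a difference of -0.26 (SE 0.13, exact permutation p = 0.3).

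The same 3 members had an unadjusted limma p under 0.05, against 5.45% of all genes in either direction and 2.44% with BCAS higher. None passed after adjustment (lowest limma adjusted p = 0.871), and 0.0% of all genes did. edgeR gave an unadjusted p under 0.05 for 5 members (6.78% of all genes) and DESeq2 for 4 (4.54%), and DESeq2 left 7 of the 10 without an adjusted p. The exact permutation test gave p = 0.2 for each of the 3, and 3 against 2 cannot go below 0.1. Without day 7 labelled WT, *Ccl3* (difference 0.73) and *Cxcl16* (0.62) stayed under 0.05 before adjustment and *Ccl6* (0.57) did not. Without day 14 labelled WT, 6 members were under 0.05 before adjustment, *Cxcl12* with BCAS lower. Calls rose among all tested genes as well, with 2013 under 0.05 in this fit against 988 with all libraries. Without the sham library labelled TRPA1-KO no member had such a p, and without the one labelled WT only *Ccl3* had.

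With the label TRPA1-KO, 6 members had a higher mean than sham, as 49.3% of all genes had, and 4 a lower one. The median difference of the members was 0.03. *Ccl3* had the largest, 0.32 (SE 0.426, exact permutation p = 0.3), followed by *Ccl6* at 0.24 (SE 0.376) and *Cxcl16* at 0.16 (SE 0.363). No member had a p under 0.05 in limma, edgeR, or DESeq2, where limma gave one for 2.74% of all genes (0.00552% after adjustment), edgeR for 2.85%, and DESeq2 for 1.4%. Both comparisons share the sham libraries, and the difference between them is the comparison of the BCAS groups above.

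When all 4 libraries labelled WT were set against all 4 labelled TRPA1-KO, 8 members were higher with the label WT, as 50.7% of all genes were. The members' median was 0.56 (0.07 without day 7 labelled WT), and *Ccl3* had the largest difference (0.73, SE 0.389). No member had a limma p under 0.05, against 3.94% of all genes (0.0497% after adjustment), while edgeR and DESeq2 gave an unadjusted one for 3 each (4.76% and 3.45% of all genes). No member separated the labels, as 1.31% of all genes did with the label WT higher, and the exact permutation p was 0.2 for *Ccl3*, *Ccl6*, and *Cxcl16*, where 0.0286 is the smallest that 4 against 4 allow.

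The receptors of these ligands were sparse to moderate. Of 10 receptors, 8 were tested, and *Ccr3* and *Cxcr6*, the receptor of *Cxcl16*, lay under the limit on mean expression. *Cx3cr1*, the receptor of *Cx3cl1* on microglia, stood at 37.9 CPM with sham in the WT-labelled set and at 106 (day 7), 65.3 (day 10), and 41.4 CPM (day 14) with BCAS. In the TRPA1-KO-labelled set, the values were 47.4 CPM with sham and 40.2, 47.4, and 59.5 CPM with BCAS. Its order across libraries was thus unlike that of its ligand, which was lowest where the receptor was highest.

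*Cxcr4*, the receptor of *Cxcl12*, had 4.62 and 2.52 CPM on days 7 and 10 labelled WT and 1.02 to 2.01 CPM elsewhere. *Ccr2* and *Ccr1* had 1.78 and 1.33 CPM on day 7 labelled WT and no more than 0.630 CPM in any other library. The mean of *Ccr1* reached the limit only through day 7 labelled WT. The scavenger receptors *Ackr1* (29.4 to 36.3 CPM) and *Ackr3* (7.07 to 12.5 CPM) did not have their highest value there. Of the 8 receptors tested, 7 were higher with the label WT in the BCAS groups, as 50.3% of all tested genes were, with a median of 0.37. On day 7 labelled WT, 4 of them were highest, as 21.9% of all tested genes were.

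None of these receptors passed the adjusted test in any comparison. *Ccrl2*, an atypical receptor that does not signal, had an unadjusted limma p under 0.05 in the BCAS groups by label (0.50, SE 0.219, exact permutation p = 0.2), with 0.334, 0.107, and 0.832 CPM on days 7, 10, and 14 labelled TRPA1-KO and 1.16, 1.01, and 0.768 CPM labelled WT. The same held against sham with the label TRPA1-KO, where it was lower (-0.64, SE 0.246, exact permutation p = 0.2), the sham values being 0.861 and 1.53 CPM. *Ackr2*, a decoy that takes up inflammatory Ccl chemokines, did so against sham with the label WT, where it was higher (0.77, SE 0.24, exact permutation p = 0.2), with 3.02, 1.64, and 3.40 CPM against 1.17 and 1.05 CPM. It was also above sham in all 3 libraries labelled TRPA1-KO (1.89, 1.92, and 2.18 CPM, difference 0.50, exact permutation p = 0.1), and the BCAS groups differed by 0.27 (SE 0.23).

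**Figure D4:**
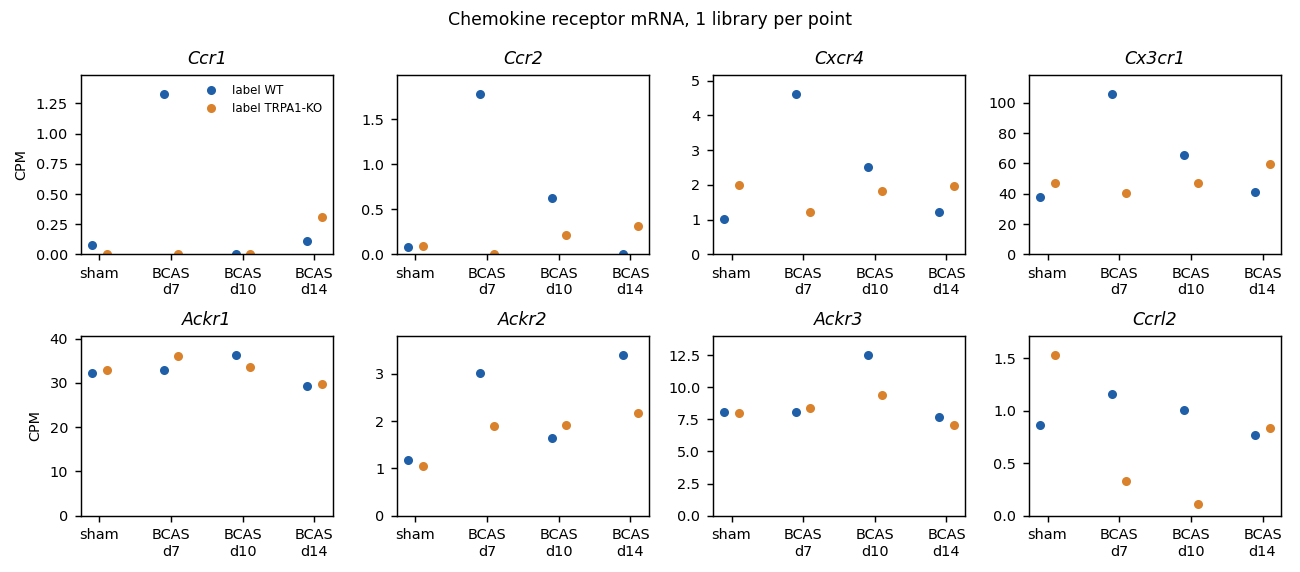
CPM of 8 tested chemokine receptors (vertical axis, from 0) by operation and postoperative day, 1 library per point, blue with the label WT and orange with the label TRPA1-KO. *Cx3cr1*, *Cxcr4*, *Ccr2*, and *Ccr1* have their highest point on day 7 labelled WT, and *Ackr1* and *Ackr3* do not.

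Among 22 other chemokine ligands, 13 were tested and none passed after adjustment. The interferon-induced *Cxcl10* had 5.60 and 1.26 CPM on days 7 and 10 labelled WT and at most 0.391 CPM elsewhere (BCAS groups by label 1.25, SE 0.528, exact permutation p = 0.4, unadjusted limma p under 0.05). Over all 4 libraries of each label, *Ccl28*, a mucosal chemokine, differed by 0.61 (SE 0.251, exact permutation p = 0.143) and *Cxcl10* by 1.02 (SE 0.438, exact permutation p = 0.143), both with an unadjusted limma p under 0.05. *Ccl11*, which draws eosinophils, also had such a p, with 0.110 to 1.07 CPM in the libraries labelled WT, of which day 7 alone was above the floor, and 0 reads in the 4 labelled TRPA1-KO (exact permutation p = 0.0286). Its mean, like that of *Ccl7*, reached the limit of 0.1 CPM only through day 7 labelled WT. *Ccl27a* was the most abundant of the list, at 133 to 186 CPM, and like *Cx3cl1* it was lowest on day 7 labelled WT and highest on day 7 labelled TRPA1-KO.

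Many chemokine genes are induced through NF-κB, and its genes gave no limma p under 0.05 in any of the 4 comparisons (16 of 18 tested), where 2.74% to 5.45% of all genes had one. Of the 16, 8 were highest on day 7 labelled WT, as 21.9% of all tested genes were. Among them were *Bcl3*, a regulator of NF-κB, with 4.89 CPM there and at most 1.64 CPM elsewhere, and the adhesion molecule *Icam1*, with 8.80 and at most 3.54 CPM. The kinase subunits *Chuk* (51.0 to 60.7 CPM), *Ikbkb* (46.2 to 60.3 CPM), and *Ikbkg* (42.4 to 49.9 CPM) had the highest levels of that list. Of the cytokines in the list, *Il1a* lay between 0.223 and 1.87 CPM, highest on day 14 labelled TRPA1-KO, and *Il1b* between 0.288 and 1.26 CPM, highest on day 10 labelled WT. *Tnf* and *Il6* were under the limit, with at most 0.0889 and 0.445 CPM, both on day 7 labelled WT. Of the proteases, *Adam17*, which sheds *Cx3cl1* and *Cxcl16*, had 37.4, 29.6, and 24.9 CPM on days 7, 10, and 14 labelled WT and 22.9, 21.0, and 26.5 CPM labelled TRPA1-KO (0.36, SE 0.151, exact permutation p = 0.2, unadjusted limma p under 0.05 but not adjusted). *Adam10* lay between 89.3 and 107 CPM and *Dpp4*, which cleaves *Cxcl12*, between 3.82 and 9.57 CPM, lowest on day 7 labelled WT.

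For the 6 members with a mean of at least 1 CPM, the genes with the most similar pattern over the 8 libraries were sought among 15151 genes, by Pearson's r of log2(CPM + 1), as a description. The libraries share depth and cell composition, and day 7 labelled WT weighs on each value. *Ccl6* was most like *Plcb2* (r = 0.995), *Slamf9* (0.989), and *Gpr84* (0.988), and r stayed at 0.938 or above without the 2 libraries farthest from its median. *Cxcl16* was most like *Csf1r*, the receptor of a microglial growth factor (r = 0.993), *Tgfbr2* (0.992), and *Laptm5* (0.989), with r of 0.817 or above without those 2.

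*Ccl9* was most like *Vtn*, which encodes vitronectin (r = 0.98), *Eif2s3y* (0.977), and *Rab10os* (0.973). *Cx3cl1* was most like the neuronal genes *Vgf* (r = 0.971) and *Chrm1* (0.963) and like *Acss2* (0.962), and *Cxcl12* was most like *Kcnj4* (0.978), *Cpne5* (0.974), and *Cdk17* (0.971). The likeness of *Cxcl14* to *Ctps2* (r = 0.968) and *Gpd1* (0.961) rested on 2 libraries, days 7 and 10 labelled WT, since r was 0.151 and 0.0512 without them, and that to *Timp1* was 0.953 with and 0.658 without them.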

How the data were processed

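Corpus callosum was snap-frozen on days 7, 10, or 14, and polyadenylated RNA was sequenced in 8 libraries. Per the study's methods and submitters' processing notes, reads were mapped to GRCm38 (mm10) with HISAT2, counted per gene with featureCounts of Subread, and normalized with edgeR. The annotation and strand setting are not given in the sources used here. The deposited values are a signal computed by the authors, reads divided by effective library size and scaled to CPM, not log-transformed. Their sums were 966202 to 1022161 per library, and all of the values (100%) were whole reads within a tolerance of 0.01, which gave depths and 95% Clopper-Pearson intervals. Intervals and floors cover counting error only.

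Libraries were grouped by their labels. Log2(CPM + 1) was tested two-sided in limma (version 3.58.1, R 4.3.3; trend, Benjamini-Hochberg over the 18123 genes whose mean reached 0.1 CPM) and, per member, with exact permutation tests. The BCAS groups were compared in 6 libraries and the rest in 8. Each library was taken as 1 mouse, per the study's methods, and the spread between libraries includes the differences between days. Other settings were no filter on low values or a filter at 1 CPM, a pseudocount of 0.1, equal library medians, a replicate block by day, a joint fit of the 8 libraries, leaving out single libraries, and, on recovered reads, edgeR version 4.0.16 and DESeq2 version 1.42.0. On simulated counts of 18123 genes for the BCAS groups, limma recovered 100% of 200 genes changed by 2 on the log2 scale at an adjusted p under 0.05, and 5.03% of unchanged genes had an unadjusted p under 0.05. The changed genes were drawn from genes more abundant than the sparse members. All genes had the same simulated dispersion, without differences between days. The recovery therefore does not measure the power for the sparse members. No pair of libraries agreed within sampling noise.

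Exon lengths and positions come from GENCODE M21 and promoters from RefSeq. The members, the lists of receptors, ligands, NF-κB genes, and proteases, and the markers were chosen with earlier results of these data known. Of each list, genes with a p under 0.05 in a comparison or else the 3 of highest mean were named, with 3 genes of highest r for each member of at least 1 CPM. The neighbors of *Ccl2* and the receptors, NF-κB genes, cytokines, single astrocyte markers, and proteases named outside this rule were chosen after their values were seen. A further gene of the lists is not reported here.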

Additional observations from a re-analysis of the deposited data

Results flagged for a closer look

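In 4 of 20 sets of 4 libraries with the same label (10 members, each label), the highest library lay farther from the others than Dixon's 95% limit for 4 values allows. For normal values from a single population, chance gives this in about 1 of 20 sets. Among the libraries labelled WT, day 7 after BCAS stood apart in *Ccl2* (3.11 CPM), *Ccl12* (5.16 CPM), and *Ccl4* (3.91 CPM). Among those labelled TRPA1-KO, day 14 after BCAS stood apart in *Ccl9* (4.79 CPM). The sets mix sham and BCAS libraries of different days and hold sparse counts, so the number of flags cannot be read against that rate. The 3 values of day 7 come from 1 library.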

How the results depend on the processing

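No member reached an adjusted p under 0.05 under any alternative that gave one, the lowest being 0.0696 (*Cxcl16*, BCAS labelled WT against sham) with limma. DESeq2 gave no adjusted p for 7 members with the label WT against sham and for 2 over all libraries by label. Of 574 single-member values under the alternatives (libraries left out included), 548 kept their direction and 26 changed sign. The filter at 1 CPM left 6 members.

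Genes with an adjusted p under 0.05 between the BCAS groups numbered 3, but 1 without a filter, 1 with the day block, 0 with all 8 libraries in 1 fit, and 17 with DESeq2. For the label WT against sham, 0 became 24 with DESeq2, the 988 genes with a p under 0.05 became 509 with the day block, and the members' median of 0.71 became 1.68 with edgeR and 1.68 with DESeq2, which have no pseudocount of 1. For the label TRPA1-KO against sham, 1 became 0 without a filter, 0 with equal medians, 0 with the block, and 4 with DESeq2, which gave 254 genes with a p under 0.05 in place of 496. In this comparison, *Ccl12* (-0.18), *Cxcl14* (0.017), *Cxcl16* (-0.13), and *Cx3cl1* (-0.0159) changed sign with the block and *Ccl9* (-0.0616) with a pseudocount of 0.1. Same-day libraries did not deviate together (correlations -0.10, 0.0051, and -0.26 on days 7, 10, and 14). Each correlation compares 1 library per label, so whether the day has an effect cannot be told from it. With the block, 2 members had a p under 0.05 between the BCAS groups, 1 against sham with the label WT, and 1 over all libraries by label.

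With 1 library left out, genes with a p under 0.05 numbered 325 to 1846 between the BCAS groups (lowest without day 10 labelled TRPA1-KO, highest without day 14 labelled WT), 357 to 2013 for the label WT against sham (without the sham library labelled TRPA1-KO and day 14 labelled WT), and 191 to 735 for the label TRPA1-KO against sham. Adjusted, they numbered 1 to 29, 0 to 45, 0 to 1, and, by label over all libraries, 6 to 14. Between the BCAS groups, log2 differences ranged from -0.10 to 0.92 (*Ccl2*), -0.037 to 1.07 (*Ccl12*), -0.222 to 0.0203 (*Cxcl12*), and -0.0906 to 0.155 (*Cxcl14*). For the label WT against sham, they ranged from -0.13 to 0.89 (*Ccl2*) and -0.10 to 0.14 (*Cxcl14*). For the label TRPA1-KO against sham, they ranged from -0.16 to 0.10 (*Ccl2*), -0.0816 to 0.342 (*Ccl12*), -0.23 to 0.13 (*Ccl4*), -0.52 to 0.38 (*Ccl9*), -0.0312 to 0.00286 (*Cxcl14*), and -0.0655 to 0.144 (*Cx3cl1*). By label over all libraries, they ranged from -0.14 to 0.54 (*Ccl2*), -0.144 to 0.0172 (*Cxcl12*), and -0.0585 to 0.105 (*Cxcl14*). The causes were not tested. Where an arm was left with 1 library, that library was assumed to vary like the others. With 0 to 10 reads in most libraries, differences of *Ccl2*, *Ccl12*, *Ccl3*, and *Ccl4* other than day 7 labelled WT were mostly not detectable at this depth.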
